A study of Mus musculus with 4 samples.

Results

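The genes described here are secretory genes of Bowman's glands and nasal glands, named as Muc5ac, Muc5b, Muc2, Dmbt1, Car6, Sox9, Aqp5, Ltf and Pigr and looked up by gene symbol in the count files. Of these 9 genes, 8 matched a row among the 23337 genes counted in each of the 4 libraries, and all 8 passed the filter on low counts. No row matched Muc2, and it is not analysed here. The rule that names them uses symbols and no measured value, although they were proposed with earlier results of these data known.

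The libraries were made from Tomato-positive cells that had been sorted out of regenerated olfactory epithelium of mixed-background mice, with 1 mouse per library. All mice carried K5Cre, which is active in Krt5-expressing basal cells, and the Cre-dependent R26 Ai9 reporter of tdTomato. Mutant mice were Lmnb1 fl/fl and their sorted cells are termed Lmnb1-/-, and control mice were Lmnb1 fl/+ with sorted cells termed Lmnb1+/-. Lmnb1 encodes lamin B1, a structural protein of the nuclear lamina. All mice received 50 mg/kg methimazole, a drug that destroys the olfactory epithelium, and recovered for 4 weeks. The 2 experimental groups each held 1 control and 1 mutant, which shared parents, sex, age, treatment and library work, and by the series' design text the groups differed from each other in parents, sex, age and treatment. The number in a library's name gives its experimental group, and control 1 and mutant 1 are thus the pair of group 1. The control cells were themselves heterozygous, the mutant tissue was a mosaic from which Tomato-negative cells were left out by the sort, a minority of its Tomato-positive cells still held lamin B1, and the sorted cells were a mixture of all Tomato-positive types. In such a mixture, fewer cells of a type and less RNA per cell cannot be told apart.

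Bowman's glands lie beneath the olfactory epithelium, and their ducts carry a mixed mucous and serous fluid to its surface. Gel-forming mucins are very large glycoproteins, dense in serine, threonine and proline, that swell into mucus after release. Serous proteins, such as lactoferrin and carbonic anhydrase, enter the same fluid, water follows through aquaporins, and the polymeric immunoglobulin receptor carries antibodies across the epithelium.

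Gene counts summed to 14833396 to 23704638 per library. At these totals 3 counts corresponded to 0.127 to 0.202 CPM, that is, the counts were divided by the summed gene counts and multiplied up to a common total. Mutant 1 stood apart from the others, with 39.4% of its uniquely aligned reads outside genes against 22.1% to 24.9%, and with 1603 genes at 0 counts against 5173 to 6053. The background that this predicted for the 8 genes in mutant 1, from genes at 0 in the other libraries, came to at most 2.00% of their counts. Lmnb1 itself had 477 and 395 counts in the controls and 326 and 149 counts in the mutants (log2 fold change -0.72, SE 0.31, edgeR likelihood-ratio test with Benjamini-Hochberg adjustment, adjusted p = 0.195). Cre removes 1 exon of the conditional allele, whereas these counts cover the whole gene. The paper reports depleted Lmnb1 transcript by PCR in sorted mutant cells. Summed levels of 5 mature neuron markers were 14870 and 6361 CPM in controls 1 and 2. In mutants 1 and 2 the sums were 8143 and 1812 CPM. All 5 markers were lower in mutant cells by the likelihood-ratio test, beside 4.3% of all tested genes called lower. The quasi-likelihood test also called all 5, whereas DESeq2 called 2 of them (Adcy3 and Cnga2), among 494 and 532 genes that they called lower in all. The fit without a filter on low counts and the fit without the replicate block each called 0. A share of the RNA lost by one cell type is taken up by the others in CPM, and its part in the results below was not tested.

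In mutant cells, Muc5ac and Car6 were higher than in control cells and the other 6 genes did not pass the test (edgeR likelihood-ratio test, Benjamini-Hochberg adjustment over 15438 tested genes, threshold 0.05). The background for the 2 of 8 genes called higher was 1.28% of all tested genes. None of the 8 was called lower, against 4.3% of all tested genes. At an unadjusted p under 0.05 by the likelihood-ratio test, 3 of 8 (Muc5ac, Dmbt1 and Car6) were higher and 1 (Muc5b) was lower. Over all tested genes, 2460 of 15438 were under that cut in either direction. The quasi-likelihood test of edgeR also called 0 lower, whereas DESeq2 called 1 lower, Muc5b, among 532 genes that it called lower in all. The fitted log2 fold change was above 0 for 6 of the 8 genes, with a median of 0.54 against -0.01 over all tested genes. CPM values given for each library are scaled by trimmed mean of M-values (TMM) factors. In both mutants CPM exceeded both controls for Muc5ac, Car6 and Aqp5, that is 3 of 8 genes, against 12.6% of all tested genes. The mutants were both below both controls for 0 of 8 genes, against 13.3%.

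**Figure D1:**
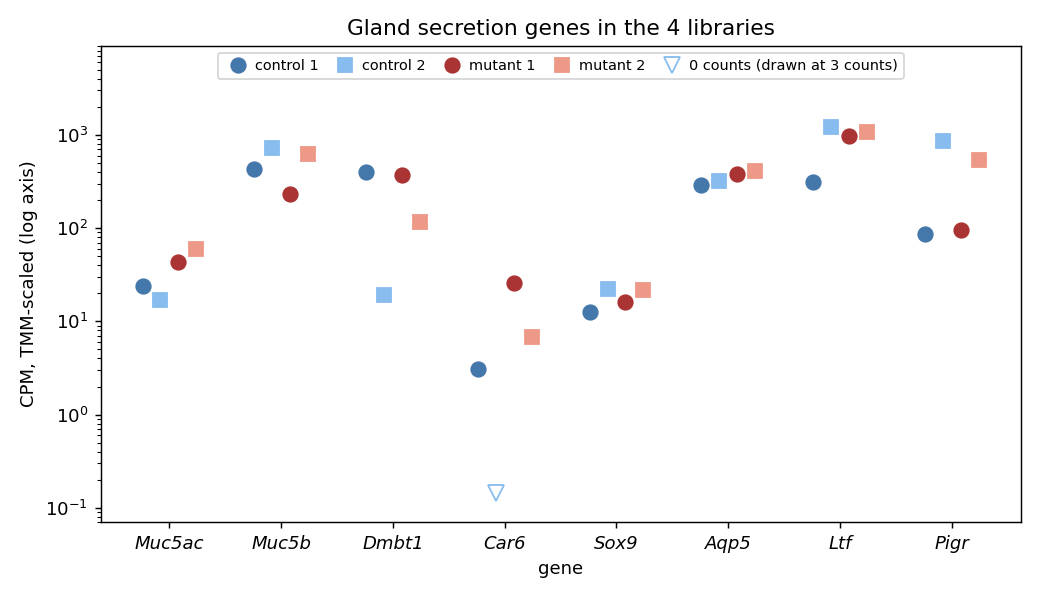
TMM-scaled CPM of the 8 genes on a log axis, with 1 point per library (circles, experimental group 1; squares, experimental group 2; blue, control; red, mutant); the open triangle is Car6 in control 2, which had 0 counts and is drawn at the level of 3 counts. Both mutants lie above both controls for Muc5ac, Car6 and Aqp5, whereas Pigr is about 86.3 to 96.4 CPM in group 1 and 541 to 858 CPM in group 2.

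Levels per kilobase of exon allow the genes to be ranked against each other. Averaged over the 4 libraries, Ltf was at 259 CPM per kb, Aqp5 at 135, Pigr at 98.3, Muc5b at 33.4, Dmbt1 at 32.4, Car6 at 4.89, Sox9 at 4.39 and Muc5ac at 3.33 CPM per kb. Of the neighbours in this order, Dmbt1 and Car6 kept their order in all 4 libraries, whereas every other pair of neighbours exchanged places in at least 1 library.

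Muc5ac encodes a gel-forming mucin best known from goblet cells of the airway surface and the stomach. The gene lies on chr7:141788972-141819231 on the plus strand (mm10, GENCODE annotation), in 49 exons. Its coding sequence holds a long repeat, shown here because the repeat bears on how reads of 50 bases can be counted. The stretch below is 120 bases of exon 31 of the annotated transcript, chr7:141808654-141808773 on the plus strand, with each copy of the most frequent 12-base word of the coding sequence in capitals.
Muc5ac repeat: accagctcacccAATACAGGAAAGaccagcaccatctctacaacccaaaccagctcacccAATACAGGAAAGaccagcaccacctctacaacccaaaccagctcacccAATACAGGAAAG
That word occurs 24 times in the coding sequence, and each of the 23 steps from one copy to the next spans 48 bases. Of all 50-base windows of the transcript, 23.2% occur more than once within it, compared with 21.9% for Muc5b and 25.7% for Dmbt1. No such window was found for Car6, Sox9, Aqp5 or Ltf, and for Pigr 1.74% of windows recurred there or in another gene. No exon of the 8 genes overlapped an exon of another annotated gene on either strand. Reads with several alignments are set aside in the counting, so that the counts of the 3 repeat-bearing genes come mainly from the rest of their length, in every library alike.

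Muc5ac counts were 550 and 352 in controls 1 and 2 and 1009 and 872 in mutants 1 and 2, or 23.8, 16.8, 43.8 and 59.1 CPM. Both mutants were above both controls, and the library with the highest level, mutant 2, was the least deeply sequenced. The rise was 1.84-fold in experimental group 1 and 3.52-fold in group 2. The fitted log2 fold change was 1.34 (SE 0.24, 2 mutants against 2 controls, edgeR likelihood-ratio test, adjusted p = 1.32e-05). The quasi-likelihood test of edgeR (adjusted p = 0.0186) and DESeq2 (adjusted p = 0.000361) also called Muc5ac higher. Without the replicate block it no longer passed (log2 fold change 1.34, edgeR adjusted p = 1.00), and it did not pass in any fit that left out 1 library and with it the block (log2 fold changes 1.14 to 1.62, edgeR adjusted p from 0.512 to 1.00). Muc5ac did not pass the test between experimental groups (log2 difference of group 2 minus group 1 -0.02, SE 0.24, edgeR likelihood-ratio test, adjusted p = 0.956).

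Muc5b encodes the other main gel-forming mucin of the airways and is typical of submucosal gland mucous cells. It lies on chr7:141839070-141873084 on the plus strand, with its start 50.1 kb downstream of that of Muc5ac. Muc5b counts were 9986 and 15023 in controls 1 and 2 and 5369 and 9153 in mutants 1 and 2, or 432, 716, 233 and 620.3 CPM. Mutant 1 had the lowest level and control 2 the highest, and the genotypes overlapped, since mutant 2 was above control 1. The mutant was lower than its own control in both experimental groups, with log2 ratios of -0.89 and -0.21. The fitted log2 fold change was -0.55 (SE 0.27), which did not pass with the edgeR likelihood-ratio test (adjusted p = 0.295) or the quasi-likelihood test (adjusted p = 0.112) but passed with DESeq2 (log2 fold change -0.54, adjusted p = 0.0197). Muc5b was higher in experimental group 2 by 1.07 on the log2 scale (SE 0.27, edgeR likelihood-ratio test, adjusted p = 0.000684).

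Muc5ac and Muc5b thus differed in the sign of their mutant-to-control ratio in each pair, and their relative share was computed after these values had been seen. Muc5ac made up 5.22% of the summed counts of both mucins in control 1 (95% Wilson interval 4.81% to 5.66%) and 2.29% in control 2 (2.06% to 2.54%). In mutant 1 the share was 15.8% (14.9% to 16.7%), and in mutant 2 it was 8.70% (8.16% to 9.27%). Both mutants were above both controls and the 4 intervals did not overlap, although they cover counting error only. The mean share was 12.3% in mutants and 3.75% in controls. A two-sided exact permutation test over the 4 libraries, which ignored the pairing, gave p = 0.333, the smallest p that 2 against 2 libraries allow. With both mutants already seen above both controls, no other p was possible, so the test decides nothing.

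**Figure D2:**
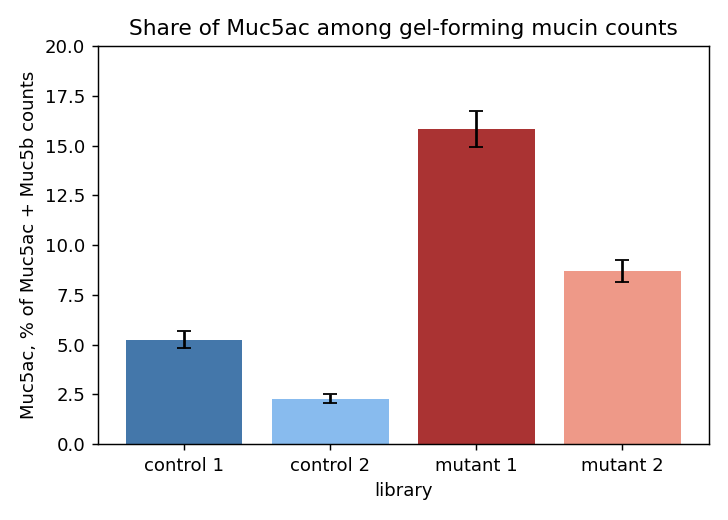
Muc5ac counts as a percentage of the counts of Muc5ac and Muc5b together in each library, with 95% Wilson intervals as error bars. The share was 5.22% and 2.29% in the controls and 15.8% and 8.70% in the mutants.

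Both mucin genes sit in a cluster on chromosome 7, and 12 genes of this region were tested. Besides Muc5ac, 3 of them passed the test, all lower in mutant cells, beside 4.3% of all tested genes called lower, and the median log2 fold change over the 12 was -0.05. Tollip, an inhibitor of Toll-like receptor signalling that starts 130 kb beyond the start of Muc5ac, had 466 and 268 CPM in controls 1 and 2 and 280.1 and 157 CPM in mutants 1 and 2 (log2 fold change -0.75, SE 0.22, edgeR likelihood-ratio test, adjusted p = 0.0207). Brsk2, a kinase of neurons, had a log2 fold change of -0.62 (SE 0.19, edgeR likelihood-ratio test, adjusted p = 0.0293). Dusp8, a phosphatase of stress-activated kinases, had a log2 fold change of -0.83 (SE 0.20, edgeR likelihood-ratio test, adjusted p = 0.0027). Brsk2 did not pass the quasi-likelihood test of edgeR (adjusted p = 0.0794) or DESeq2 (adjusted p = 0.14), only 1 of the 3, Dusp8, passed without a filter on low counts, and none of the 3 passed without the replicate block. Muc6, a gel-forming mucin of stomach glands, was at 0.389, 1.14, 4.34 and 0.407 CPM in control 1, control 2, mutant 1 and mutant 2, so that mutant 1 alone stood high. The nearest listed genes on either side of Muc5ac, Muc6 and Muc5b, did not pass the test.

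**Figure D3:**
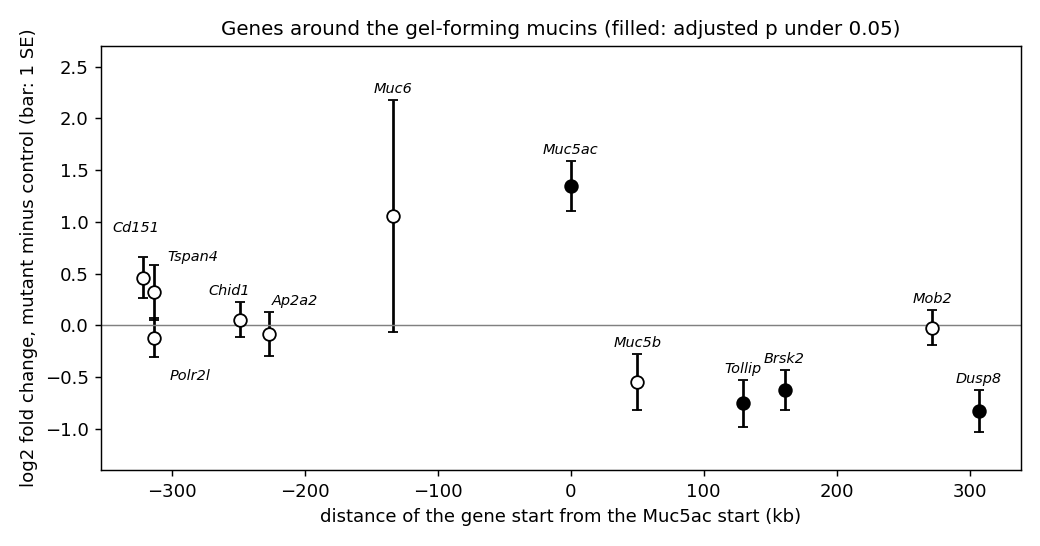
Fitted log2 fold change (mutant minus control, bars 1 SE) of the 12 tested genes of the mucin region on chromosome 7 against the distance of each gene's start from the start of Muc5ac, in kb (filled points, adjusted p under 0.05). Muc5ac at 1.34 is the only filled point above 0, and Tollip, Brsk2 and Dusp8 are filled points below 0.

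Dmbt1 encodes a secreted scavenger-receptor glycoprotein of saliva and mucus that binds bacteria. It lies on chr7:131032053-131121630 on the plus strand. Dmbt1 counts were 9336 and 400 in controls 1 and 2 and 8649 and 1707 in mutants 1 and 2, or 403, 19.1, 375 and 116 CPM. Both libraries of experimental group 1 were above both of group 2, and control 2 was lowest. Control 1 was 21.2-fold above control 2, whereas mutant 1 was 3.24-fold above mutant 2. The experimental group coefficient was -3.04 on the log2 scale (SE 0.45, edgeR likelihood-ratio test, adjusted p = 9.68e-08). Mutant against control, the log2 ratio was -0.11 in group 1 and 2.60 in group 2, and the fitted log2 fold change of 1.24 (SE 0.45) did not pass (edgeR likelihood-ratio test, adjusted p = 0.143). Fits of genotype alone without control 1, control 2 or mutant 1 gave log2 fold changes of 3.70, -0.67 and -0.88. Each leaves 1 library in a genotype and so mixes genotype with experimental group.

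Car6 encodes the secreted carbonic anhydrase, an enzyme of saliva and nasal fluid that helps to buffer pH. It lies on chr4:150187015-150201332 on the minus strand. Car6 counts were 72 and 0 in controls 1 and 2 and 589 and 101 in mutants 1 and 2, or 3.11, 0, 25.5 and 6.84 CPM. Both mutants were above both controls, and within each genotype the library of group 1 was higher. In experimental group 1 the rise was 8.21-fold. In group 2 mutant 2 was at least 47.9-fold higher than control 2, taking 3 counts in that library as the floor. The fitted log2 fold change of 4.38 (SE 0.66, edgeR likelihood-ratio test, adjusted p = 7.46e-07) depends on how the 0 is handled and is no bound. The quasi-likelihood test also called Car6 higher (adjusted p = 0.0269), whereas DESeq2 gave it an unadjusted p of 0.0231 and no adjusted p. Without the replicate block it did not pass (edgeR adjusted p = 1.00). Fits of genotype alone without control 1, control 2, mutant 1 or mutant 2 gave log2 fold changes of 11.32, 2.42, 2.12 and 4.07. Each leaves 1 library in a genotype and so mixes genotype with experimental group. Without control 1 the only control had 0 counts. Control 1 was at least 21.8-fold above control 2 by the same floor, and the experimental group coefficient was -3.23 (SE 0.66, edgeR likelihood-ratio test, adjusted p = 5.7e-05).

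The tested genes whose pattern over the 4 libraries was most like that of Car6, by Euclidean distance between centred log2 CPM values, were Mup5, Obp1a and Lcn11, each at a distance of 0.54 to 1.04. All 3 encode lipocalins, small secreted proteins that bind hydrophobic ligands, and counts of the Mup and Obp families are uncertain because near-identical copies share reads. Mup5 was at 39.5 and 1.62 CPM in controls 1 and 2 and 363 and 138 CPM in mutants 1 and 2. Obp1a was at 81.6, 3.72, 1033 and 426 CPM in the same order. Lcn11 was at 22.3, 0.762, 375 and 117 CPM, so that each of the 3 shared with Car6 the order mutant 1, mutant 2, control 1, control 2. The genes nearest to Muc5ac were Olfr129, Htr2b and Ncaph, at distances of 0.21 to 0.22. Ncaph, a subunit of condensin, was at 6.05 and 4.86 CPM in controls 1 and 2 and 10.8 and 14.1 CPM in mutants 1 and 2, and it did not pass the test (log2 fold change 1.18, edgeR likelihood-ratio test, adjusted p = 0.1). Olfr129 and Htr2b were at most at 2.44 CPM and 1.29 CPM in any library and did not pass.

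Ltf encodes lactoferrin, an iron-binding antibacterial protein of serous gland cells and of neutrophil granules. It lies on chr9:111019271-111042767 on the plus strand. Ltf counts were 7306 and 25285 in controls 1 and 2 and 22567 and 15822 in mutants 1 and 2, or 316, 1204, 979 and 1072 CPM. Control 1 was the low library and the other 3 were close to each other. The log2 ratio of mutant to control was therefore 1.63 in experimental group 1 and -0.17 in group 2, and the fitted log2 fold change of 0.73 (SE 0.38) did not pass (edgeR likelihood-ratio test, adjusted p = 0.369). Ltf was higher in group 2 by 1.03 on the log2 scale (SE 0.38, edgeR likelihood-ratio test, adjusted p = 0.035). Without control 1 that difference was 0.20 (edgeR adjusted p = 0.927).

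Because lactoferrin is also a neutrophil protein, 17 neutrophil markers were examined beside it, of which 16 had a row and 9 were tested. None of the 9 passed the edgeR likelihood-ratio test between genotypes in either direction, none had an unadjusted p under 0.05, and neither the quasi-likelihood test nor DESeq2 called any. The summed level of the 16 was 88.4 and 123 CPM in controls 1 and 2 and 72.6 and 129.6 CPM in mutants 1 and 2. S100a8, a calcium-binding protein of neutrophil cytosol, was at 10.98, 1.10, 2.82 and 2.24 CPM in control 1, control 2, mutant 1 and mutant 2, and its partner S100a9 was at 17.4, 0.667, 5.38 and 2.91 CPM. Both were highest in control 1. The following genes of the list were chosen after their values were seen. The granule genes Ngp, Camp, Elane and Mpo were at most 0.648 CPM in any library and at 0 in control 2, whereas the granule genes Prtn3 and Mmp9 were at 3.54 and 9.29 CPM in control 1 and at 1.67 and 2.43 CPM in control 2, with 3.17 and 5.38 CPM in mutant 1 and 1.36 and 1.02 CPM in mutant 2. Cxcr2 was at 5.83, 6.29, 13.4 and 4.81 CPM in control 1, control 2, mutant 1 and mutant 2. In the same order Lcn2 was at 9.29, 42.2, 16.9 and 43.0 CPM. Between experimental groups 2 of the 9, Lcn2 and Chi3l3, were higher in group 2 and 3 were lower (edgeR likelihood-ratio test), beside 31.6% of all tested genes. Chi3l3 and Lcn2, which epithelia also express, supplied 65.7 and 42.2 CPM of the summed level in control 2. The part of neutrophils in the Ltf level was not tested.

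Pigr encodes the polymeric immunoglobulin receptor, which moves IgA and IgM from plasma cells beneath an epithelium into the lumen. It lies on chr1:130826684-130852249 on the plus strand. Pigr counts were 1997 and 18018 in controls 1 and 2 and 2222 and 7988 in mutants 1 and 2, or 86.3, 858, 96.4 and 541 CPM. Both libraries of group 2 were far above both of group 1, by 9.94-fold among the controls and 5.62-fold among the mutants. The experimental group coefficient was 2.90 on the log2 scale (SE 0.27, edgeR likelihood-ratio test, adjusted p = 1.12e-20), and each fit that left out 1 library also called it (log2 difference 2.58 to 3.23). Between genotypes the log2 ratios were 0.16 and -0.66 in groups 1 and 2, and the fitted value was -0.26 (SE 0.27, edgeR likelihood-ratio test, adjusted p = 0.753). Of 9 plasma cell markers 4 were tested, and none passed between genotypes by the edgeR likelihood-ratio test. Sdc1, a proteoglycan that epithelia also carry, was higher at an unadjusted p under 0.05 by that test, beside 2460 of all 15438 tested genes in either direction. The quasi-likelihood test and DESeq2 called Sdc1 higher, among 117 and 176 genes that they called higher in all. Igj, the joining chain of polymeric antibodies that the receptor binds, was at 39.6 CPM in control 1 and at 0.191, 0.737 and 1.90 CPM in control 2, mutant 1 and mutant 2. Pigr was at 86.3 CPM in control 1 and at a similar 96.4 CPM in mutant 1, and no relation between Igj and Pigr was tested.

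Aqp5 encodes the apical water channel of serous gland cells. It lies on chr15:99590782-99594829 on the plus strand. Aqp5 counts were 6792 and 6768 in controls 1 and 2 and 8671 and 6024 in mutants 1 and 2, or 294, 322, 376 and 408 CPM. Both mutants were above both controls, and the log2 ratios within experimental groups 1 and 2, 0.36 and 0.34, were close to each other. The fitted log2 fold change of 0.35 (SE 0.23) did not pass with the edgeR likelihood-ratio test (adjusted p = 0.524), the quasi-likelihood test (adjusted p = 0.185) or DESeq2 (adjusted p = 0.08). Aqp5 had the narrowest range of the 8 genes, 1.39-fold from lowest to highest library, and did not pass between experimental groups (edgeR likelihood-ratio test, adjusted p = 0.727). Of 10 other aquaporins 4 were tested and none passed between genotypes by the edgeR likelihood-ratio test. At an unadjusted p under 0.05 by that test, 1, Aqp4, was higher, beside 2460 of all 15438 tested genes in either direction. The quasi-likelihood test and DESeq2 each called 2 of the 4 higher, Aqp3 and Aqp4, among 117 and 176 genes that they called higher in all. Aqp3, a basolateral channel for water and glycerol, was at 1182 and 1197 CPM in controls 1 and 2 and 1681 and 1608 CPM in mutants 1 and 2. Aqp4, a basolateral water channel, was at 248 and 551 CPM in the controls and 390.2 and 770.0 CPM in the mutants.

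Sox9 encodes a transcription factor of gland and duct progenitors and is used as a marker of Bowman's glands. It lies on chr11:112782224-112787760 on the plus strand. Sox9 counts were 292 and 467 in controls 1 and 2 and 371 and 320 in mutants 1 and 2, or 12.6, 22.2, 16.1 and 21.7 CPM. The genotypes overlapped, and both libraries of group 2 were above both of group 1. The fitted log2 fold change was 0.16 (SE 0.29, edgeR likelihood-ratio test, adjusted p = 0.891), and the experimental group coefficient was 0.62 (SE 0.29, edgeR likelihood-ratio test, adjusted p = 0.0873).

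Of the 8 genes, 5 passed the test between experimental groups and 2 the test between genotypes. For the group coefficient of the edgeR likelihood-ratio test, the 5 of 8 stood against 31.6% of all tested genes called in either direction. Muc5b, Ltf and Pigr were higher in group 2, whereas Dmbt1 and Car6 were lower in group 2. Both libraries of 1 group were above both of the other for Muc5b, Dmbt1, Sox9, Ltf and Pigr, that is 5 of 8 genes, which is near the 61.4% of all tested genes for which this held. The fits that left out 1 library called 2 to 3 of the 8, Dmbt1 and Pigr in every one of them, and Muc5b in none of them. The groups differed in parents, sex, age and treatment by the series' design text, and the study also names litter and batch. Alignments that were not unique numbered 67710764 and 62182762 in control 1 and mutant 1, against 10308536 and 6757456 in control 2 and mutant 2. The parts of all these differences cannot be told apart. Whether the effect of genotype differed between the groups was not tested, because the 4 libraries leave no residual degree of freedom for such a term.

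**Figure D4:**
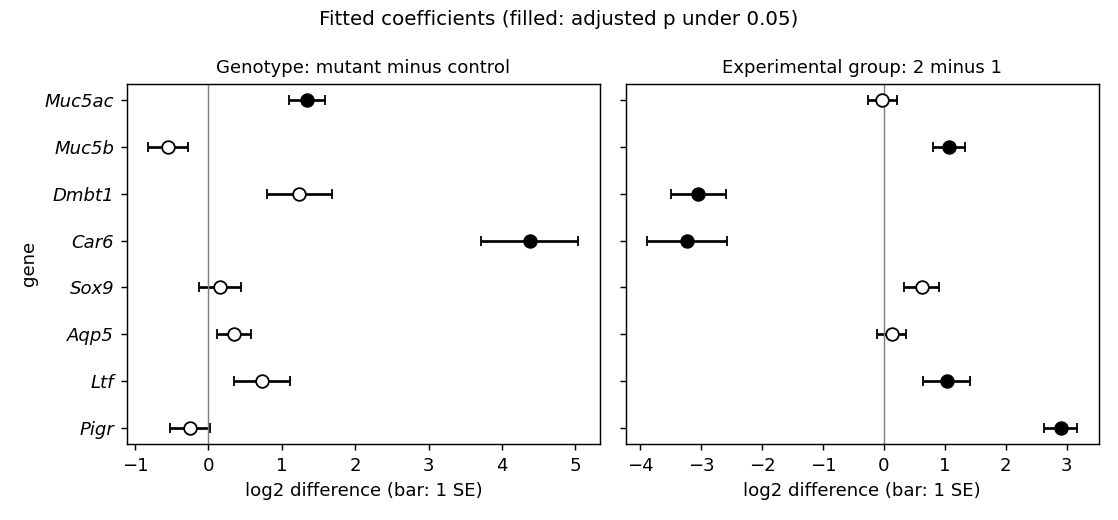
Fitted log2 differences of the 8 genes for genotype (left, mutant minus control) and experimental group (right, group 2 minus group 1), with bars of 1 SE and filled points for an adjusted p under 0.05. Muc5ac and Car6 are filled on the left at 1.34 and 4.38, and 5 genes are filled on the right, from -3.23 for Car6 to 2.90 for Pigr.

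The genes of mucus production that accompany mucins in secretory cells did not pass between genotypes. Of 31 genes listed for mucin folding, glycosylation and their transcription factors, 25 were tested. By the edgeR likelihood-ratio test, the quasi-likelihood test or DESeq2, 0 were called in either direction. At an unadjusted p under 0.05 (likelihood-ratio test), 3 (Foxa1, Ern2 and Gcnt1) were higher and 2 (Galnt3 and Itln1) lower. Over all tested genes, 2460 of 15438 were under that cut in either direction. The median log2 fold change was -0.03, against -0.01 over all tested genes. Spdef, a transcription factor of goblet and mucous cells, was at 9.08 and 19.8 CPM in controls 1 and 2 and 13.7 and 25.0 CPM in mutants 1 and 2 (log2 fold change 0.47, SE 0.30, edgeR likelihood-ratio test, adjusted p = 0.491). Foxa3, a forkhead factor of goblet cells, was at 1.04, 0.81, 0.564 and 3.05 CPM (edgeR likelihood-ratio test, adjusted p = 0.918). Spdef was higher in each mutant than in its own control, and Foxa3 was higher in mutant 2 and lower in mutant 1.

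Between experimental groups, 14 of these 25 genes were higher in group 2 and 1 was lower (edgeR likelihood-ratio test), beside 31.6% of all tested genes called in either direction, with a median log2 difference of 0.99 against -0.03 over all tested genes. The following examples were chosen after their values were seen. Agr2, a disulfide isomerase needed for mucin folding, was at 62.4 and 68.5 CPM in control 1 and mutant 1 and at 354 and 318 CPM in control 2 and mutant 2. Itln1, a secreted lectin that binds microbial sugars, was at 6.61 and 5.94 CPM in control 1 and mutant 1 and at 66.4 and 33.1 CPM in control 2 and mutant 2. Clca3, a goblet cell protein of mucus granules, was the gene that was lower in group 2, with 4.93 and 1.26 CPM in control 1 and mutant 1 and 0.286 and 0.407 CPM in control 2 and mutant 2. Muc5b and Pigr thus had the direction of most of the list between groups, and Dmbt1 and Car6 had that of Clca3.

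Among 14 other mucins, 8 were tested, and 0 were called between genotypes in either direction by the edgeR likelihood-ratio test, the quasi-likelihood test or DESeq2, with none at an unadjusted p under 0.05. Their median log2 fold change was 0.27. Between experimental groups 5 of the 8 (Muc1, Muc4, Muc15, Muc20 and Cd164) were higher in group 2 and none lower (edgeR likelihood-ratio test), against the same 31.6%. Membrane-bound mucins stay attached to the cell surface rather than forming gel, and Muc1 and Muc4, chosen after their values were seen, show the pattern. Muc1 was at 14.7 and 11.6 CPM in control 1 and mutant 1 and at 52.3 and 53.2 CPM in control 2 and mutant 2, and Muc4 was at 9.90 and 11.5 CPM against 44.9 and 46.4 CPM. The group coefficient of Muc5ac, -0.02, was not tested against theirs.

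Of 18 serous gland secretion genes 12 were tested, and 0 were called between genotypes by the edgeR likelihood-ratio test, the quasi-likelihood test or DESeq2. At an unadjusted p under 0.05 (likelihood-ratio test), Pip and Gp2 were higher and Lyz1 lower, beside 2460 of all 15438 tested genes in either direction. Their median log2 fold change was 0.14. Between experimental groups 6 of the 12 were higher in group 2 and none lower, again beside 31.6% of all tested genes in either direction. Of 16 gland epithelium genes, all tested, Krt23 alone passed between genotypes, beside 1.28% of all tested genes called higher. The median log2 fold change of the 16 was 0.22. Elf5 and Krt7, named after their values were seen, were also higher at an unadjusted p under 0.05, beside the same 2460 of 15438. DESeq2 called 2 higher (Elf5 and Krt23), among 176 genes that it called higher in all. The fits with no filter and with more than 1 CPM in all 4 libraries each called 2 higher, among 188 and 209 in all. Krt23, an epithelial keratin, was at 44.2 and 156 CPM in controls 1 and 2 and 91.2 and 209 CPM in mutants 1 and 2 (log2 fold change 0.73, SE 0.21, edgeR likelihood-ratio test, adjusted p = 0.0129), so that each mutant was above its own control while the genotypes overlapped. Sox10, the other gland transcription factor often paired with Sox9, was at 11.5 to 12.2 CPM in all 4 libraries, a value chosen after it was seen.

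None of the other carbonic anhydrases passed in the direction of Car6. Of 15 listed, 10 were tested, and 0 were higher and 1 was lower by the edgeR likelihood-ratio test. Over all tested genes, 1.28% were called higher and 4.3% lower. Fitted log2 fold changes were above 0 for 4 of the 10, with a median of -0.29. At an unadjusted p under 0.05 (likelihood-ratio test), 1 was higher (Car12) and 1 lower (Car2), beside 2460 of all 15438 tested genes in either direction. The quasi-likelihood test called 0 higher, and DESeq2 called 1 higher, Car12, among 176 genes that it called higher in all. The one called lower was Car2, a cytosolic carbonic anhydrase, with 68.2 and 43.6 CPM in controls 1 and 2 and 37.0 and 22.2 CPM in mutants 1 and 2 (log2 fold change -0.93, SE 0.18, edgeR likelihood-ratio test, adjusted p = 7.36e-05).

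Several of the 8 genes are also expressed by cells outside Bowman's glands, and markers of those cells were measured beside them. For respiratory epithelium, 11 of 13 markers were tested, and 3 passed, all lower in mutant cells, beside 4.3% of all tested genes called lower. The 3 were the ciliary genes Foxj1, Tekt1 and Ccdc40, which are also expressed by ciliated neurons. Foxj1 was at 166 and 112 CPM in controls 1 and 2 and 121 and 49.9 CPM in mutants 1 and 2 (log2 fold change -0.80, SE 0.21, edgeR likelihood-ratio test, adjusted p = 0.00458). Tekt1 had a log2 fold change of -0.74 (adjusted p = 0.00896) and Ccdc40 one of -0.91 (adjusted p = 0.000816) by the same edgeR test, and DESeq2 did not call Tekt1. Cyp2f2, a cytochrome P450 of airway secretory cells chosen after its values were seen, was at 1087 and 1698 CPM in controls 1 and 2 and 1717 and 2425 CPM in mutants 1 and 2, and it was called higher by the quasi-likelihood test and DESeq2 but not by the likelihood-ratio test of edgeR (log2 fold change 0.59, SE 0.29, adjusted p = 0.292). The defining club cell marker Scgb1a1 had 0 counts in all 4 libraries, below the floor of 3 counts. The summed level of the 12 markers with a row was 14510 and 16212 CPM in control 1 and mutant 1 and 64456 and 68612 CPM in control 2 and mutant 2, of which Bpifa1, a secreted antimicrobial protein, supplied 12528 and 13504 CPM and 59900.0 and 63371 CPM.

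For sustentacular cells, the supporting cells of the olfactory epithelium, all 6 markers were tested and 0 passed between genotypes in either direction by the edgeR likelihood-ratio test. At an unadjusted p under 0.05 by that test, 1 was higher (Ermn), beside 2460 of all 15438 tested genes in either direction. The quasi-likelihood test called 1 higher (Ugt2a1) and DESeq2 called 2 higher (Cyp2g1 and Ugt2a1), among 117 and 176 genes that they called higher in all. Between experimental groups 5 of the 6, all but Hes1, were higher in group 2, beside 31.6% of all tested genes called in either direction. Cyp2g1, an olfactory cytochrome P450 of these and gland cells, was at 1312 and 1502 CPM in control 1 and mutant 1 and 3472 and 5106 CPM in control 2 and mutant 2. The summed levels of the sustentacular, respiratory, serous and mucus cell lists were all higher in both libraries of group 2, as for Muc5b and Pigr. The respiratory sum was mostly Bpifa1. Of its 11 tested markers, 4 were higher and 3 (Foxj1, Tekt1 and Ccdc40) lower in group 2 (edgeR likelihood-ratio test), beside the same 31.6%. Their median log2 difference was 0.18. The part of cell composition in these differences was not tested.

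**Figure D5:**
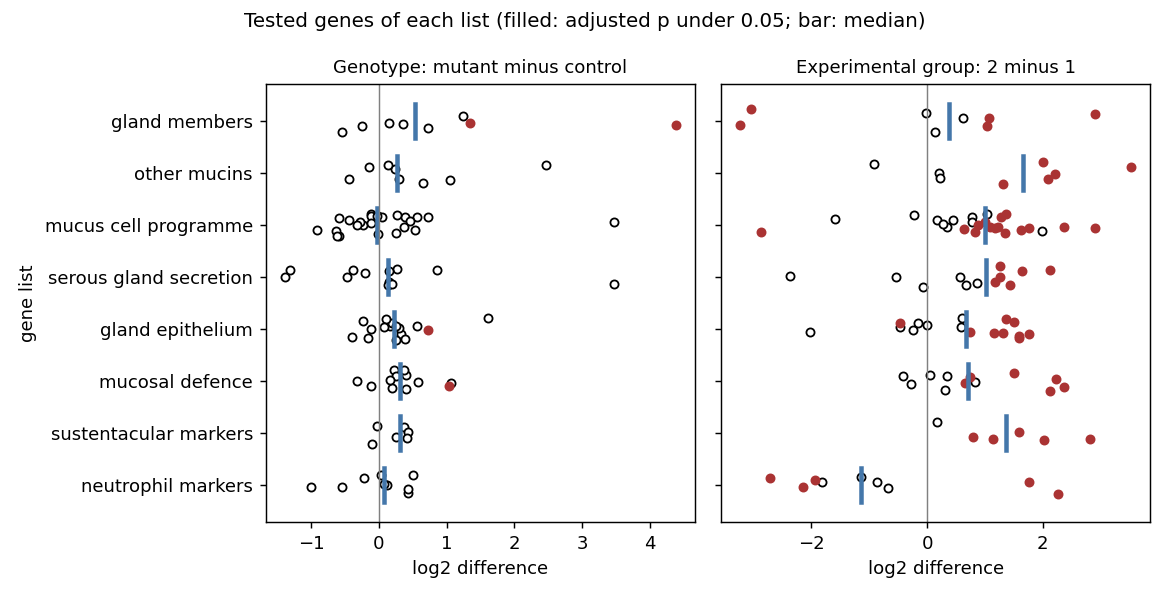
Fitted log2 differences of every tested gene in 8 gene lists for genotype (left) and experimental group (right), with filled points for an adjusted p under 0.05 and a vertical bar at the list median. On the left the list medians lie between -0.03 and 0.54, and on the right the medians of the mucus cell and sustentacular lists are 0.99 and 1.36.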

How the data were processed

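The authors deposited unnormalized read counts for each gene symbol, which they obtained with HTSeq in intersection-nonempty mode from 50-base single-end reads of rRNA-depleted RNA, after removal of rRNA reads with Bowtie2 2.0.6, quality filtering and alignment with TopHat2 2.0.7 to mm10. The strand setting and annotation are not given in the sources used here. The 5 tally lines of each file, 43.1% to 77.7% of its sum, did not enter library sizes or tests.

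The filter, test and model terms were those of the study, except that its printed code kept the tally lines as rows. Genes with more than 1 CPM in at least 2 libraries were tested with edgeR 4.0.16 under R 4.3.3, with TMM factors, common, trended and tagwise dispersions, a model of genotype plus experimental group (the replicate block) and likelihood-ratio tests. This test follows the study rather than the quasi-likelihood test, which was run as an alternative with DESeq2 1.42.0, RLE factors, other filters, thinning, tally lines kept, background subtracted, no block and libraries left out. The fits were also run on simulated counts with 200 changed genes and the same dispersion, 0.05, for every gene. Fitted dispersions of Car6, Dmbt1 and Ltf were higher, at 0.159, 0.095 and 0.070, so the simulation does not represent those genes. SEs are Wald errors. Ratios within a group used a prior count of 2. The pairing comes from the labels. Deviations of control 1 and mutant 1 from their genotype means correlated at r = 0.52 across 15438 genes, which are not independent replicates. All pairs of libraries differed by more than sampling noise (chi-square per degree of freedom 47.0 to 278). Coordinates and lengths came from GENCODE M21, in which 20961 symbols matched directly, 1920 by an older symbol and 456 not at all. Intervals and floors of 3 counts cover counting error only. The genes and lists were chosen with earlier results of these data known. Genes named by rule were the 9 members, list genes past the threshold, a fixed panel of markers and the 3 genes nearest in pattern to each called member. Further list genes, among them Muc6, Aqp3, Aqp4 and Sdc1, were named outside this rule with their values known, also where the text does not say so. Muc5ac, Muc5b, Muc6, Tff2 and Reg3g stand in more than 1 list.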

Additional observations from a re-analysis of the deposited data

Results flagged for a closer look

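The log2 ratio of mutant to control had opposite signs in experimental groups 1 and 2 for 4 of the 8 genes. It was -0.11 and 2.60 for Dmbt1, 0.35 and -0.036 for Sox9, 1.63 and -0.17 for Ltf, and 0.16 and -0.66 for Pigr. Each ratio compares 1 mutant with 1 control, and the difference between groups was not tested.

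The median log2 ratios of 5 gene lists also had opposite signs in groups 1 and 2, again untested. They were 0.10 and -0.015 for the mucus cell genes, 0.093 and -0.17 for serous gland secretion, 0.041 and -0.36 for carbonic anhydrases, -0.34 and 0.028 for neutrophil markers, and 0.11 and -0.52 for respiratory epithelium markers.

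Reads outside genes, which the comparisons did not use, made up 39.4% of the uniquely aligned reads of mutant 1. The share was 22.1% in mutant 2 and 23.8% and 24.9% in controls 1 and 2, so that mutant 1 alone stood high.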

How the results depend on the processing

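The log2 fold changes of Muc5ac and Car6 between genotypes kept their direction in every alternative that gave a value. Against 197 genes called higher among all tested, the quasi-likelihood test called 117. Without the replicate block (genotype alone) 0 of the 8 members, 6 of all tested genes as higher and 0 as lower were called. With DESeq2, 1 member was called higher (Muc5ac), 1 lower (Muc5b) and 3 differed between experimental groups. Without a filter on low counts 3 members differed between groups, and the group coefficient of Muc5ac reversed to 0.041. With more than 1 CPM required in all 4 libraries Car6 was not tested and 1 member was called higher. Leaving out each library in turn, in fits of genotype alone, gave 0 to 2 members higher, 3 to 33 genes higher and 0 to 5 genes lower among all tested, against 197 and 664. Over these fits the log2 fold changes ranged from -0.23 to 0.62 for Sox9, -0.22 to 1.74 for Ltf, -1.27 to 0.11 for Muc5b, -0.88 to 3.70 for Dmbt1 and -2.27 to 1.93 for Pigr. Fits of experimental group alone, chosen after seeing the data, gave 2 to 3 members that differed, with coefficients from -0.061 to 0.30 for Aqp5, -1.01 to 0.82 for Muc5ac and -11.34 to 0.12 for Car6. Fits without a library have fewer samples, leave 1 library in a genotype and mix genotype with experimental group, and the other causes were not tested. RLE factors, thinning and background subtraction changed no call of the 8 genes, and with kept tally lines only the group difference of Ltf no longer passed (0.98, edgeR adjusted p = 0.0537). With 2 libraries per genotype and the replicate block, the p-values rest on dispersions that borrow from other genes. They measure no spread beyond these mice.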

Other observations

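Genes of mucosal defence and of the stem cell layer were also measured. Of 15 mucosal defence genes 12 were tested, and Il17re passed between genotypes, beside 1.28% of all tested genes called higher. Il17re, a receptor subunit for interleukin-17C on epithelial cells, was at 12.4 and 19.8 CPM in controls 1 and 2 and 25.8 and 40.4 CPM in mutants 1 and 2 (log2 fold change 1.04, SE 0.25, edgeR likelihood-ratio test, adjusted p = 0.00171). Both mutants were above both controls, as for 12.6% of all tested genes. The median log2 fold change of the 12 was 0.31. Between experimental groups 6 of the 12 were higher in group 2 and 0 were lower, beside 31.6% of all tested genes called in either direction.

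Of 5 horizontal basal cell markers, which mark the stem cells that K5Cre targets, Krt15 passed between genotypes by the edgeR likelihood-ratio test. The share of all tested genes called higher by that test was 1.28%. All 5 had fitted log2 fold changes above 0, as did 48.9% of all tested genes. DESeq2 called 4 higher (Krt5, Krt14, Krt15 and Trp63), among 176 genes that it called higher in all. Krt15 was at 51.6 and 38.2 CPM in controls 1 and 2 and 133 and 68.6 CPM in mutants 1 and 2 (log2 fold change 1.11, SE 0.18, edgeR likelihood-ratio test, adjusted p = 4.53e-07). Krt5 was at 1043, 628, 1410.4 and 818 CPM in control 1, control 2, mutant 1 and mutant 2 (edgeR likelihood-ratio test, adjusted p = 0.514). Omp, the olfactory marker protein of mature neurons, was at 9665 and 3267 CPM in controls 1 and 2 and 5359 and 912 CPM in mutants 1 and 2 (log2 fold change -1.35, SE 0.35, edgeR likelihood-ratio test, adjusted p = 0.00714).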
